A study of Capra hircus with 6 samples.

Results

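Genes of the cell division cycle and of its E2F transcription factors were compared between lactating mammary glands of Low and High goats. Low and High are genotypes at CSN1S1, which encodes the milk protein alpha-s1-casein. The members are all probes whose single gene symbol names a DP or E2F factor, a pocket protein, a cyclin, a cyclin-dependent kinase or its inhibitor, an MCM, ORC or CDC gene, or 1 of a short list of mitotic, DNA synthesis, stress and growth genes. They were 67 probes for 64 genes, of 8379 probes and 6535 single gene symbols on the array, and TFDP2 is set against the rest. PCNA and MKI67, which the choice of symbols also names, are not analysed here.

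The Low group held 3 goats and the High group 3 goats, and per the labels all 6 were lactating and ate a control diet ad libitum. The image names in the file headers carry the letters FF in 6 of 6 Low files and AA in 6 of 6 High files, which the labels do not explain. Each of 3 goat pairs, 1 Low and 1 High, was hybridised to 2 two-colour oligonucleotide arrays with the dyes swapped, so each of the 6 arrays gives a ratio of Low over High. The tissue was whole gland, in which fewer cells of a type and less RNA per cell cannot be told apart. Ratios are given as log2 of Low over High, so that a gene lower in Low has a negative value, and n is 3 pairs, with the 2 arrays of a pair averaged first.

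E2F factors bind the promoters of genes needed for DNA synthesis and cell division. Most of them bind as dimers with a DP protein, TFDP1 or TFDP2, while pocket proteins of the RB family hold these dimers in check until cyclin-dependent kinases release them. In the mammary gland, secretory cells multiply mainly during pregnancy and turn to milk synthesis in lactation.

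CSN1S1, the gene that defines the groups, was at -2.43 ± 0.22 (SD, n = 3 pairs), which puts Low at 18.6% of High, and it was lower on 6 of 6 arrays (limma adjusted p = 5.13e-04). Per array, 74.1% to 82.2% of probe spots carried no manual or empty flag, and the number of arrays limits the precision. Among mammary epithelial markers 8 of 10 genes on the array were measurable, and KRT8 and XDH were not. Of the 8, 1 was called lower in Low (CSN1S1) and 0 higher. The 7 not called ranged from -0.26 (PAEP) to 0.19 (CSN3, brightest probe), with 3 above 0. Of 8 leukocyte markers 7 were measurable (PTPRC was not), with ratios of -0.19 (CD79A) to 0.0090 and 0 called. With each gene taken by its brightest probe, the 5 myoepithelial markers on the array had ratios of 0.019 to 0.23 and the 3 adipocyte markers of -0.29 (LEP) to -0.012. Second probes disagreed in sign for CNN1 of the myoepithelial list (0.08 and -0.05) and for LEP (-0.29 and 0.0055). The endothelial markers CDH5 and VWF were at 0.10 and 0.0088, DCN (fibroblasts) at -0.05 and ALAS2 (red blood cells) at -0.04, and none of these 12 genes was called. The part of these cell types in the member values was not tested.

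Of the 67 member probes, 51 (50 genes) were measurable, meaning that the spot exceeded the local background mean by 2 background SDs in Low or in High on at least 1 array of each pair. The 14 genes that were not are RBL1, CCNB1, CCND3, CCNE2, CDK5, CDK12, CDK17, ORC6, BUB1, CDC14B, CDC23, CDC26, CDC40 and CDC123, and neither was a second probe of CDK7 and of CDC16. For 10 of these 16 probes no array gave a signal above background in either genotype. RBL1 encodes the pocket protein p107 and was the 1 pocket gene with a member probe, as RB1 and RBL2 had none. It had ratios in pair 3 only (-0.018 with Low in Cy5 and 0.091 with Low in Cy3), so no pocket protein was tested here. Each of the 51 exceeded background at least once in Low and at least once in High. CCNL2 and the AURKA probe Bt00008079 met the filter through Low only, and MCM3 and CDC6 through High only.

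TFDP2 was lower in Low, and it was the 1 member called among 51 (0 called higher). Over all 6378 measurable probes 7, or 0.110%, were called lower at an adjusted p below 0.05, and none higher. TFDP2 was singled out with earlier results known, so the member count is not read against that share. Without TFDP2, 0 of the 50 member probes were called. The other 50 member probes had a median of -0.0018 and ranged between -0.29 (PLK1) and 0.19 (GADD45B), with 23 above 0 and 27 below 0. Their smallest limma adjusted p was 0.885.

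TFDP2 (probe Bt00000214) encodes a DP protein that dimerises with E2F factors. In pair 1 its ratio was -0.48 with Low in Cy5 and -0.43 with Low in Cy3. In pair 2 it was -0.52 with Low in Cy5 and -0.51 with Low in Cy3. The arrays of pair 3 gave -0.51 with Low in Cy5 and -0.52 with Low in Cy3. All 6 arrays thus lay below 0 within 0.096 of each other, the narrowest range among the 47 member probes that had a value on 6 arrays (median range 0.474). That narrowness was specific to this processing: in the authors' deposited log2 ratios TFDP2 ran between -0.80 and -0.48, and 8 members had a narrower range. With no background correction 12 had a narrower range, with background means subtracted 22 and with print-tip loess 11, though all 6 TFDP2 values stayed below 0 in each of these. The mean was -0.50 ± 0.04 (SD, n = 3 pairs; 95% interval -0.60 to -0.39), which puts Low at 70.9% of High, or 1.41-fold lower (limma adjusted p = 0.0289). It ranked 5 by unadjusted p among all measurable probes. An exact sign-flip permutation test over the 3 pairs gave a two-sided p of 0.25, the smallest that 3 pairs allow.

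**Figure D1:**
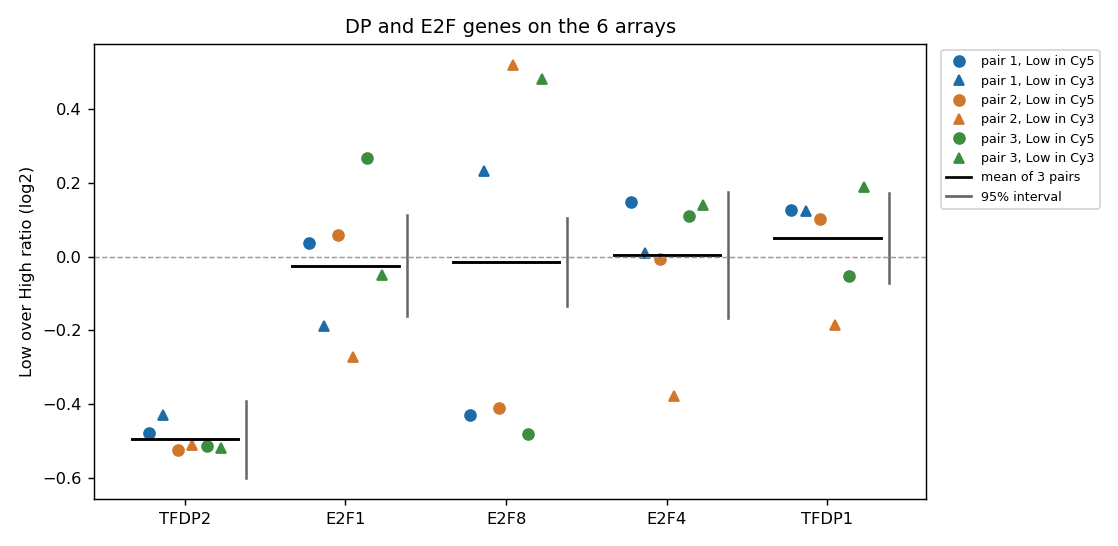
Low over High ratio (log2, vertical axis) of the 5 measurable DP and E2F genes on each of 6 arrays. Colours are pairs, circles are arrays with Low in Cy5 and triangles arrays with Low in Cy3, the black bar is the mean of 3 pairs and the grey line its 95% interval. The 6 points of TFDP2 lie between -0.52 and -0.43, while those of the other 4 genes lie on both sides of 0.

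The TFDP2 probe was dim in both genotypes. In pair 1 its net signal (spot mean minus local background mean) was 62.9 and 38.4 units in Low, against 70.0 and 115 units in High, on the arrays with Low in Cy5 and in Cy3. In pair 2 it was 52.7 and 67.4 units in Low, against 130.1 and 139 units in High. In pair 3 it was 103 and 53.6 units in Low, against 124 and 139 units in High.

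Before any normalization the Low signal was thus below the High signal on 6 of 6 arrays, by a share that varied with the array. These signals set 1 dye against the other without correction, so the shares hold dye as well as genotype. Low stood at 89.9% and 33.5% of High in pair 1 and at 40.5% and 48.4% in pair 2. For pair 3 the shares were 83.4% and 38.5%. The spot exceeded background on 4 of 6 arrays in Low and on 5 of 6 in High. Low fell short in Cy3 on 1 array each of pair 1 and pair 3, and High fell short in Cy3 on 1 array of pair 1. The 12 spot ratios, 2 per array, lay between -0.70 and -0.32, and 0 of these spots were flagged as empty.

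**Figure D2:**
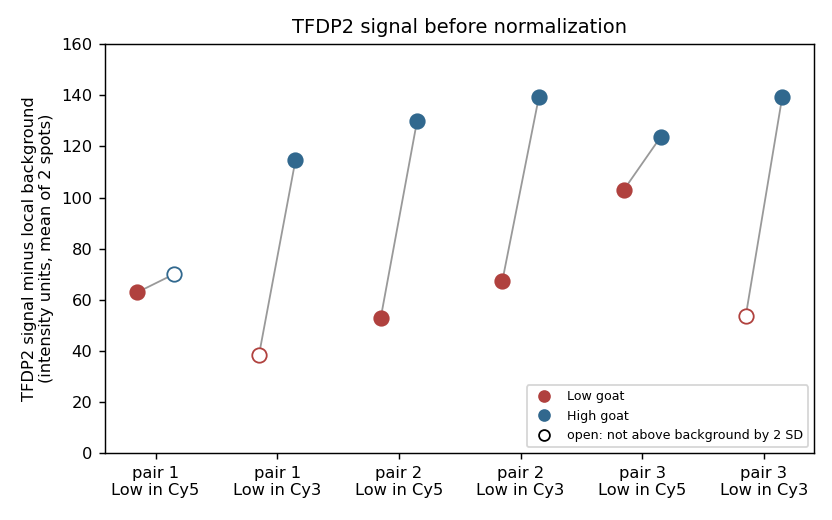
Net signal of the TFDP2 probe (scanner units, vertical axis) in Low and in High on the 6 arrays, with open symbols where the spot did not exceed background. Low is below High on every array, from 89.9% of High on 1 array of pair 1 to 33.5% on the other. The channels of an array carry different dyes and are not normalized here.

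The size of the TFDP2 ratio depended on how the background was handled. It was -0.61 with no background correction, -0.40 with background medians and -1.07 (2.10-fold lower; limma adjusted p = 0.170) with background means subtracted, and -0.60 in the authors' deposited log2 ratios. It was below 0 in 21 of 21 alternatives and called in 13 of the 19 that gave a test. The call was also lost with median centring in place of loess (adjusted p = 0.0550), with a trended robust variance (0.868), with no variance moderation (0.726), without pair 1 (0.105) and without pair 2 (0.195).

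**Figure D3:**
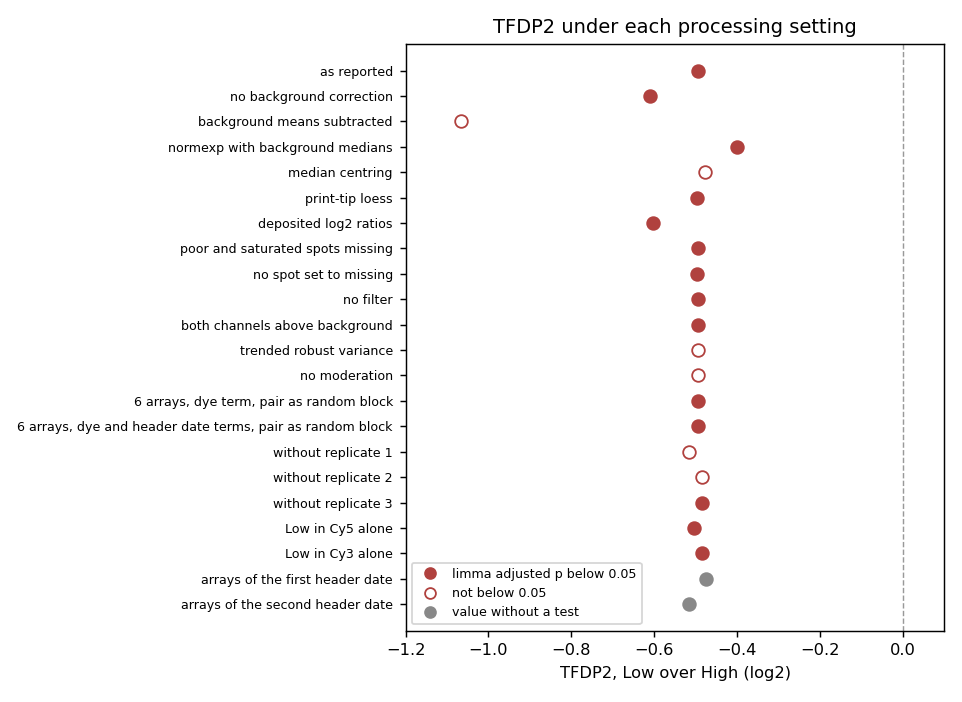
TFDP2 ratio (log2, horizontal axis) as reported and under each alternative, with filled red circles where the limma adjusted p was below 0.05, open circles where it was not, and grey circles for values without a test. All points lie below 0, from -1.07 to -0.40.

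The TFDP2 probe lay in sub-grid 7 of the array and the CSN1S1 probe in sub-grid 33. The 5 probes spotted next to TFDP2 had ratios of -0.09 to 0.07, and none of them was called. Positions and neighbours do not show which RNA the TFDP2 probe bound, and this was not tested. The arrays fall under 2 header dates, each with both arrays of 1 pair and 1 array of pair 3. TFDP2 was at -0.48 on the 3 arrays of the first date and -0.52 on the 3 arrays of the second. A fit over 6 arrays with dye and date as terms and the pair as a random block gave a limma adjusted p of 0.00123. Its units were the 6 arrays rather than the 3 pairs, and it called 28 probes, against 7 in the reported fit. Date and pair largely coincide, so this fit cannot fully tell them apart.

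Set against the median of the other 50 probes, TFDP2 was lower in every pair, with differences of -0.47, -0.51 and -0.54. In pairs 1 and 2 none of the other 50 probes had a lower ratio than TFDP2, the lowest being BUB1B in pair 1 (-0.29) and E2F4 in pair 2 (-0.19). In pair 3 PLK1 was lower, at -0.67. No test was made of TFDP2 against the members' median, because it was singled out with earlier results known.

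The members whose 6 array ratios lay nearest to those of TFDP2 were PLK1, MCM6 and MYC, at root mean square distances of 0.374, 0.427 and 0.472, against a median of 0.538 over 46 candidates. None of these 3 followed TFDP2 closely, since each had arrays on both sides of 0.

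The other DP gene and the E2F genes did not pass the test. TFDP1 was at 0.13, 0.12, 0.10, -0.18, -0.05 and 0.19 on the 6 arrays, taken by pair with Low in Cy5 before Low in Cy3. In no pair did both dye orientations give a negative ratio, and its mean was 0.05 ± 0.08 (SD, n = 3 pairs; 95% interval -0.07 to 0.17). The intervals of TFDP1 and TFDP2 do not overlap. However, TFDP2 was singled out with earlier results known, and its difference from TFDP1 was not tested.

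E2F1, an activator of DNA synthesis genes, averaged -0.02 ± 0.12 (95% interval -0.16 to 0.11). E2F4, which mostly acts as a repressor together with pocket proteins, averaged 0.0041 ± 0.17 (95% interval -0.17 to 0.17), with arrays between -0.38 and 0.15. E2F8, an atypical E2F that binds DNA without a DP partner, averaged -0.015 ± 0.08 (95% interval -0.13 to 0.10).

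Behind the E2F8 mean, the 3 arrays with Low in Cy5 gave -0.43, -0.41 and -0.48, and the 3 arrays with Low in Cy3 gave 0.23, 0.52 and 0.48. The genotype with the higher E2F8 value was therefore the one labelled with Cy3 on 6 of 6 arrays.

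Of the 5 cyclins, 5 cyclin-dependent kinase inhibitors and 7 cyclin-dependent kinases that were measurable, none was called. Cyclin ratios had a median of -0.0023, with CCNG1, a target of p53, lowest at -0.08 ± 0.14 and CCNE1, the cyclin that drives CDK2 into DNA synthesis, highest at 0.11 ± 0.07 (SD, n = 3 pairs). CCNE1 was above 0 in 3 of 3 pairs (0.18, 0.11 and 0.033; limma adjusted p = 0.885). By dye orientation, however, its arrays averaged 0.28 with Low in Cy5 and -0.07 with Low in Cy3. The D-type cyclins CCND1 and CCND2, which start the release of E2F from pocket proteins, were at 0.02 ± 0.05 and -0.0023 ± 0.09. Their partner kinase CDK4 was at 0.05 ± 0.04, above 0 in 3 of 3 pairs, and CDK2, the partner of CCNE1, was at -0.0033 ± 0.03. CCNL2, a cyclin linked to splicing, was at -0.06 ± 0.16 and had no value on 2 of 6 arrays.

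Kinase ratios had a median of 0.027, between -0.03 ± 0.10 for CDK3 and 0.08 ± 0.10 for CDK7, which activates other cyclin-dependent kinases and is part of TFIIH. CDK13, which phosphorylates RNA polymerase II, was at 0.05 ± 0.17. The remaining kinases CDK10 and CDK16 were at -0.014 ± 0.09 and 0.03 ± 0.05. The inhibitors had a median of 0.0068, between -0.025 ± 0.04 for CDKN2B (p15) and 0.09 ± 0.06 for CDKN2D (p19). CDKN1A, the p21 inhibitor induced by p53, was at 0.0068 ± 0.011, with a 95% interval of -0.09 to 0.11. CDKN1B, the p27 inhibitor of CDK2, was at -0.02 ± 0.10 and CDKN2C (p18) at 0.02 ± 0.04, and none of the 5 inhibitors passed the test.

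Replication genes were close to 0. The 9 measurable licensing and fork genes, none of them called, had a median of -0.011, from MCM6 at -0.08 ± 0.04 to ORC5, a subunit of the origin recognition complex, at 0.04 ± 0.07 (SD, n = 3 pairs). MCM6, a subunit of the replicative helicase, was below 0 in 3 of 3 pairs (-0.03, -0.12 and -0.08; limma adjusted p = 0.885). MCM7, another helicase subunit, was at 0.04 ± 0.04, with net signals averaging 20892 units in Low and 21008 units in High. MCM7 arrays averaged -0.12 with Low in Cy5 and 0.20 with Low in Cy3. The helicase subunits MCM2, MCM3 and MCM4 were at -0.012 ± 0.04, -0.02 ± 0.13 and -0.011 ± 0.10, and CDC6, which loads the helicase, was at 0.03 ± 0.08. MCM3 and CDC6 each lacked a value on 1 array. Several of these probes were dim: MCM2 and MCM3 exceeded background on 3 of 6 arrays in each genotype, and MCM6 on 4 of 6. CDC45, which joins the helicase at the fork, was at -0.05 ± 0.03, below 0 in 3 of 3 pairs. Its arrays averaged 0.33 with Low in Cy5 and -0.43 with Low in Cy3. ORC1 was at 0.0056 ± 0.08. TYMS, which makes thymidylate for DNA, was at 0.05 ± 0.10.

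Among the 12 measurable probes for mitosis and checkpoint genes, none called, PLK1 and PLK3 marked the ends of the range. PLK1, the kinase that drives entry into and exit from mitosis, was at -0.30 and 0.06 on the arrays of pair 1 with Low in Cy5 and in Cy3. Pair 2 had -0.31 and 0.15, and pair 3 had -0.52 and -0.82. Both arrays of pair 3 were low, while in pairs 1 and 2 the orientations had opposite signs. Its mean of -0.29 ± 0.33 (SD, n = 3 pairs; 95% interval -0.57 to -0.0066) had an unadjusted p of 0.0462 and a limma adjusted p of 0.885. PLK1 and TFDP2 were the 2 members with an unadjusted p below 0.05 and a lower level in Low, against 2.78% of all measurable probes.

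PLK3, a stress-responsive relative of PLK1, was at 0.15 ± 0.22, with pairs at 0.13, -0.06 and 0.37. AURKA, a kinase of the spindle poles, was measured by 2 probes, at 0.06 ± 0.08 and 0.07 ± 0.17, and neither was called (the second lacked a value on 1 array). CDC25B, a phosphatase that activates cyclin-dependent kinases before mitosis, was at -0.04 ± 0.08. The measurable probe of CDC16, a subunit of the anaphase-promoting complex, was at -0.06 ± 0.10, and CDC20, which activates that complex, was at 0.02 ± 0.07. AURKB, a kinase of the centromere, was at -0.0013 ± 0.014. Of the checkpoint genes, BUB3 was at 0.0048 ± 0.04, MAD2L2 at -0.03 ± 0.10 and BUB1B at -0.03 ± 0.24. TOP2B, a topoisomerase that is also expressed in cells that do not divide, was at -0.07 ± 0.17.

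GADD45B, a gene induced by stress, was at 0.39 and 0.25 on the arrays of pair 1 with Low in Cy5 and in Cy3. Pair 2 had -0.05 and 0.09, and pair 3 had 0.29 and 0.19. It was above 0 on 5 of 6 arrays, with a mean of 0.19 ± 0.16 (SD, n = 3 pairs; 95% interval 0.034 to 0.36). Its unadjusted p was 0.0252 and its limma adjusted p 0.885. It was the 1 member with an unadjusted p below 0.05 and a higher level in Low, against 2.59% of all measurable probes. MYC, a transcription factor that promotes growth and division, was at -0.06 ± 0.05, and GADD45A, a relative of GADD45B, was at 0.0050 ± 0.03.

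The other 4 measurable CDC genes have roles outside the cycle's core or shared with other processes. CDC34, a ubiquitin-conjugating enzyme, CDC37, a partner of the chaperone HSP90, and CDC5L, a splicing factor, were at -0.014 ± 0.02, -0.00059 ± 0.02 and -0.020 ± 0.11, and none was called.

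**Figure D4:**
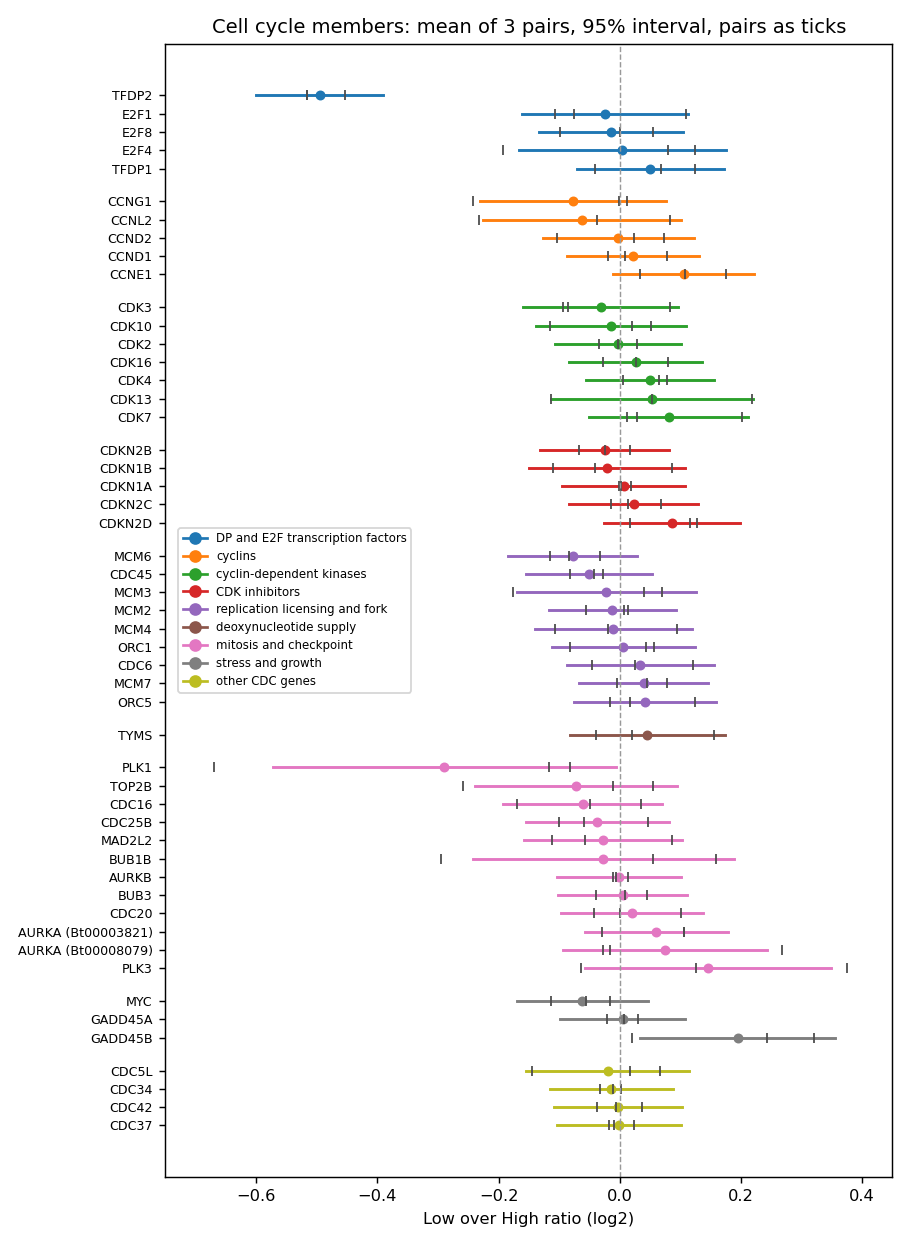
Low over High ratio (log2, horizontal axis) of all 51 measurable member probes, grouped by role, with points for the mean of 3 pairs, bars for the 95% interval and ticks for the single pairs. TFDP2 lies at -0.50, apart from the other probes, which lie between -0.29 and 0.19.

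The unadjusted 95% intervals give the ratios that the 3 pairs allow for each probe under the reported processing. They do not give the size that would have been called. Only 32 of the 51 member probes exceeded background in all 12 array channels, and for some dim probes the ratio depended on the background correction. CDKN2D, for example, was at 0.09 as reported and at 0.25 with background means subtracted. The intervals rest on the variance moderated by eBayes, which draws on all probes as well as on the pairs of the probe itself. For 47 of the 50 other member probes the whole interval lay within 0.32 of 0 on the log2 scale, and for all 50 within a 1.5-fold difference in either direction. The exceptions to the narrower limit were PLK1 (-0.57 to -0.0066), PLK3 (-0.06 to 0.35) and GADD45B (0.034 to 0.36). The members varied between pairs about as much as other probes, with a median SD of 0.0776, against 0.0792 over all measurable probes. Their median absolute ratio was 0.0275, against 0.0408 over all.

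The 3 pairs gave 1 sign in 10 of 51 member probes (19.6%), against 26.8% of all measurable probes. Across the 51 probes, Pearson r was 0.324 between pairs 1 and 2, 0.396 between pairs 1 and 3, and 0.266 between pairs 2 and 3. Over the 50 without TFDP2 it was -0.0757, 0.212 and -0.0735 in the same order. Probes of a pair share their arrays and goats, so these values only describe the libraries. Without TFDP2, little of the order among members was thus shared between pairs.

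In most members the arrays differed more by dye orientation than by genotype. In 21 of the 47 member probes with 6 values (44.7%) the orientations had opposite signs in all 3 pairs, against 37.6% of all such probes. The mean ratio exceeded the dye effect (the size of a shift that turns sign with the dyes) in size in 13 of 47 (27.7%), against 23.9%. For TFDP2 the dye effect was 0.0097 in size, below the members' median of 0.101, and 4 of 47 members had a smaller one. With print-tip loess it was 0.070, at the members' median of 0.070, and 22 members had a smaller one.

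With the 3 arrays of 1 orientation alone, 12 of 49 member probes were called with Low in Cy5 and 8 of 49 with Low in Cy3. Over all probes tested, 1025 of 6129 were called with Low in Cy5 and 484 of 5932 with Low in Cy3. The 7 members called in both were TFDP2, CCND2, CDC16, CDC42, CDC45, CDKN2B and E2F8. TFDP2 had 1 sign in both (-0.51 with Low in Cy5 and -0.49 with Low in Cy3), and the other 6 had opposite signs. CDC42, a regulator of cell polarity named here for its values, had ratios of 0.55, 0.44 and 0.74 on the arrays with Low in Cy5 and of -0.56, -0.51 and -0.67 on those with Low in Cy3.

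**Figure D5:**
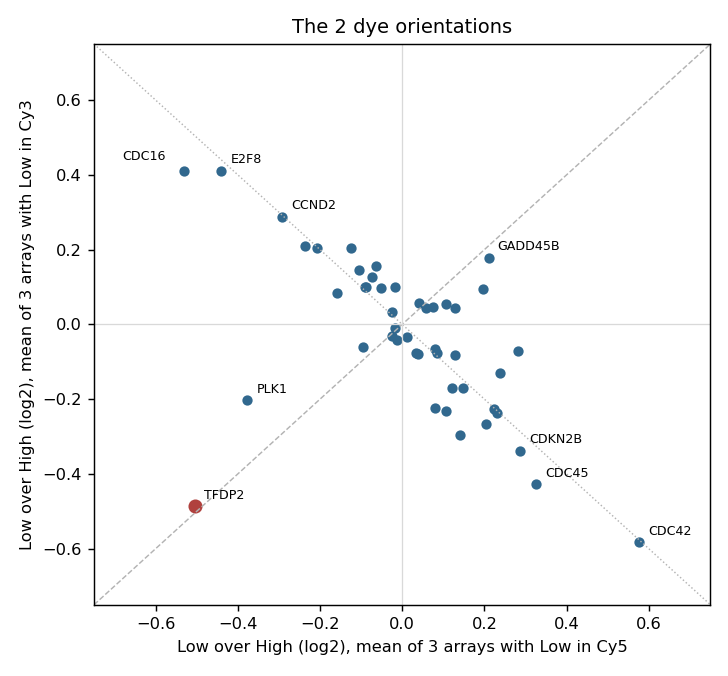
Mean ratio (log2) of 47 member probes over the 3 arrays with Low in Cy5 (horizontal axis) against that over the 3 arrays with Low in Cy3 (vertical axis). Probes on the dotted line have opposite values in both orientations, as CDC42 does, and TFDP2 lies near the dashed line of equal values at -0.51 and -0.49.

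Other genes of the cycle, outside the members, were taken from 5 lists of 90 genes, of which 43 had a named probe and 30 were measurable. None of the 30 was called, and their median was 0.0061, against 0.0014 over all measurable probes. Replication fork genes (9) ranged between -0.07 for FEN1, the flap endonuclease, and 0.14 for RPA1, which coats single-stranded DNA. Ubiquitin ligase genes of the cycle (8) ranged between -0.06 for ANAPC11 and 0.08 for CKS1B. Spindle and kinetochore genes (9) ranged between -0.09 for CENPF and 0.07 for SMC3, and the damage checkpoint genes CHEK1 and ATR were at -0.07 and 0.04. MYBL2, a target and partner of the complexes that E2F and pocket proteins form, was at -0.04.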

How the data were processed

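Per the labels, 5 ug of total RNA of each goat was labelled with Cy5 or Cy3, and spot and background intensities were measured by the authors with ImaGene 6.0. The deposited files hold, for each of 12 array channels, the mean intensity of each spot and its surrounding background, with the background SD as a signal in the same units, per the file headers. The authors' deposited log2 ratios of Low over High served as an alternative, and their normalization is not given in the sources used here. Header and label named the same dye for 12 of 12 files, and 0 per-sample columns were left unmapped.

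From these, ratios were computed in limma 3.58.1 (R 4.3.3, statmod 1.5.0) after normexp background correction (offset 50) and global loess within arrays, with control spots at weight 0 and manual or empty flags missing. Duplicate spots and then the 2 arrays of a pair were averaged, and the mean of 3 pairs was tested against 0 by two-sided lmFit and eBayes, adjusted after Benjamini and Hochberg over 6378 probes with a threshold of 0.05. Intervals are at 95%. The fit was tested on simulated data. Symbols come from the platform annotation, and 64 of 64 occur in RefSeq's goat gene table (ARS1.2). A shared symbol does not show which goat RNA a probe binds, and this was not tested. Whether the TFDP2 probe binds goat TFDP2 only is not known here. A genome build is not given in the sources used here.

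Members, lists and tests were chosen with earlier results of these data known. The genes named are all DP, E2F and pocket genes, members with an unadjusted p below 0.05, the lowest, highest and brightest of each role, members with several probes, and the 3 nearest to TFDP2. The remaining members, the markers and the other cycle genes were named after their values were seen. Alternatives covered background correction, normalization, flags, filter, variance model, single pairs and single dye orientations. Those on header dates were chosen after seeing the data.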

Additional observations from a re-analysis of the deposited data

Results flagged for a closer look

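E2F4 had 1 array far from its other 5. With Low in Cy3 in pair 2 its ratio was -0.38, while the nearest other array was at -0.0070 and the farthest at 0.15, so that the gap took up 0.704 of the whole range. The other array of pair 2 was at -0.0070, and the mean of E2F4 stayed between -0.09 and 0.10 over 21 alternatives, called in none of those tested. Such a gap was looked for in 28 named probes and found in 1. The limit used, Dixon's 95% critical value, is by its definition passed by chance in about 1 in 20 groups.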

How the results depend on the processing

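TFDP2 was called in 13 of 19 tested alternatives, which are not independent of each other, and below 0 in 21 of 21. It missed the limma threshold with background means subtracted (-1.07), median centring (-0.48), a trended robust variance and no variance moderation (both -0.50), and leaving out 1 pair gave -0.52 to -0.48. The cause was not tested. Against 7 probes called as reported, the count was 4 with no background correction, 3 with means subtracted, 1 with the trended robust variance, 0 with no moderation (346 at an unadjusted p below 0.05), 33 with the pair as a random block and 28 with header date added. It was 2 to 32 without 1 pair, 1025 with Low in Cy5 alone and 484 with Low in Cy3 alone. Members called, 1 as reported, were 0 with means subtracted, median centring, the trended robust variance and no moderation (2, 3, 1 and 1 at an unadjusted p below 0.05), 0 to 1 without 1 pair, and 12 and 8 in the single orientations. CDC16 (0.41) and E2F8 (0.41) reversed with Low in Cy3 alone, and CDKN2B (0.29) with Low in Cy5 alone. Of the other 27 named probes, 7 kept 1 sign throughout, and 0 were called with both orientations present. Every ratio sets a Low goat against the High goat of its pair, so the reported fit is itself paired. Labels call the pairs independent comparisons, so n is 3 pairs. The reported p-values do not measure the spread between these pairs alone. eBayes moderates the variance of each probe towards one drawn from all probes. With no moderation, and so with the pair spread alone, the limma adjusted p of TFDP2 was 0.726. The TFDP2 signal was dim, and its fold is uncertain: by background handling it ran from 1.32-fold to 2.10-fold lower in Low.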

Other observations

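A few members differed between goat pairs in a way that both dye orientations shared. Requiring 1 sign and a size of at least 0.25 on both arrays of a pair, a limit chosen after seeing the data, 7 of 148 member probe and pair combinations qualified (4.73%), against 213 of 18305 over all measurable probes (1.16%). Of the 7, TFDP2, singled out with earlier results known, gave 3, and without it 4 of 145 qualified (2.76%). The 4 were GADD45B in pair 1 (0.39 and 0.25), BUB1B, a kinase of the spindle checkpoint, in pair 1 (-0.32 and -0.26), PLK3 in pair 3 (0.45 and 0.30) and PLK1 in pair 3 (-0.52 and -0.82). BUB1B had ratios of 0.17 and 0.15 in pair 2, so its pairs lay on both sides of 0 and its mean was -0.03 ± 0.24 (SD, n = 3 pairs). TFDP2 was the 1 member that met this limit in 3 of 3 pairs, as did 12 of all measurable probes.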
